A study of Mus musculus with 15 samples.

Results

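Imprinted genes were described here in mouse brain tumours: 42 listed genes that are known to be expressed mainly from the maternal or the paternal copy in at least some mouse tissues. The list was taken as given, and each symbol was matched to its Ensembl identifier in the deposited tables, so 42 of 54232 genes are covered. Of these, 33 lie in 10 clusters with at least 2 listed members, and 9 stand alone at their locus in the list. By general knowledge, 22 members are expressed from the paternal copy, 18 from the maternal copy and 2 (Grb10 and Gnas) from either, depending on the promoter or transcript. Over the 15 libraries 40 members had a mean of at least 10 normalized counts, the level asked of a gene before it was tested. Slc22a18 and Phlda2 stayed below that mean, Phlda2 was tested in 0 comparisons, and a member can pass the filter through the libraries in which it is high.

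Imprinted genes sit in clusters whose expression is set by an imprinting control region, a stretch of DNA methylated on the copy from a single parent. Long non-coding RNAs such as H19, Meg3, Kcnq1ot1 and Airn are made from many of these clusters and are used as readouts of the state of the control region. ATRX, a chromatin remodeller, works with DAXX to place the histone variant H3.3 at silent chromatin, and in mouse cells ATRX and H3.3 are found on the methylated copy of imprinting control regions. Many imprinted genes are active in the developing brain and act on growth, energy balance and neuronal function.

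The tumours were started in C57BL/6 mice whose Nestin-expressing progenitors carry Tv-a, a receptor that lets avian RCAS viruses enter. Chicken DF-1 cells releasing RCAS-Cre, RCAS-PDGFA and RCAS-H3.3-GFP were injected into the cortex, and tumours were collected from the frontal cortex when the mice reached a functional end point. All 4 groups share floxed p53 (p53 fl/fl), Cre, PDGFA and a GFP-tagged H3.3 transgene, so no group is normal tissue. The groups were Atrx fl/fl with H3.3G34R (ATRXfl_G34R, n = 4), Atrx fl/fl with H3.3WT (ATRXfl_WT, n = 4), intact Atrx with H3.3G34R (p53_G34R, n = 3) and intact Atrx with H3.3WT (p53_WT, n = 4). H3.3G34R carries arginine in place of a glycine of the histone tail, a change found in some human gliomas. Ages are not stated, and whether every library is from its own mouse is not stated in the labels. The p-values set differences against the spread between these libraries and take each library as independent, which the labels do not settle. Each title carries a number of its own and a second number whose meaning is not stated, and the second is shared by ATRXfl_G34R replicates 1 and 4, by p53_G34R replicates 2 and 3 and by p53_WT replicates 3 and 4. Since the tumours are bulk tissue, fewer cells of a type and less RNA per cell cannot be told apart, and counts per gene do not separate the parental copies.

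Libraries held 22807315 to 35679129 reads in genes. Atrx, the targeted gene, stood at 2376 ± 619 normalized counts in the floxed libraries and 6687 ± 1395 in the intact ones (n = 8 and 7; exact permutation test, 2-sided, p = 0.000155, the smallest value possible with 6435 splits), with groups that did not overlap. The p53_WT replicate 3 library stood apart, with a sum over 12 mature neuron markers of 332710.4 against 1936 to 28495 in the other 14 libraries and Pdgfa at 1238.5 against at least 10267. Its sum over 7 oligodendrocyte progenitor markers, which this type of tumour carries, was 25814.5 against at least 165722. ATRXfl_G34R replicate 3 had the second highest neuron sum (28495) and 95296 counts over 8 mature oligodendrocyte markers, where p53_WT replicate 3 had 101848 and each of the other 13 at most 38535. ATRXfl_WT replicate 1 had the highest sums of 14 fibroblast and mural markers (191531 against at most 69634) and 8 endothelial markers (79028 against at most 19778). Every marker of these lists was above 0 in at least 1 library of each group, except for the choroid plexus marker Otx2, which was at 0 in all p53_G34R libraries. In the text below, levels are normalized read counts scaled over all 15 libraries, and a log2 change is the limma estimate on log2(value + 1).

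**Figure D1:**
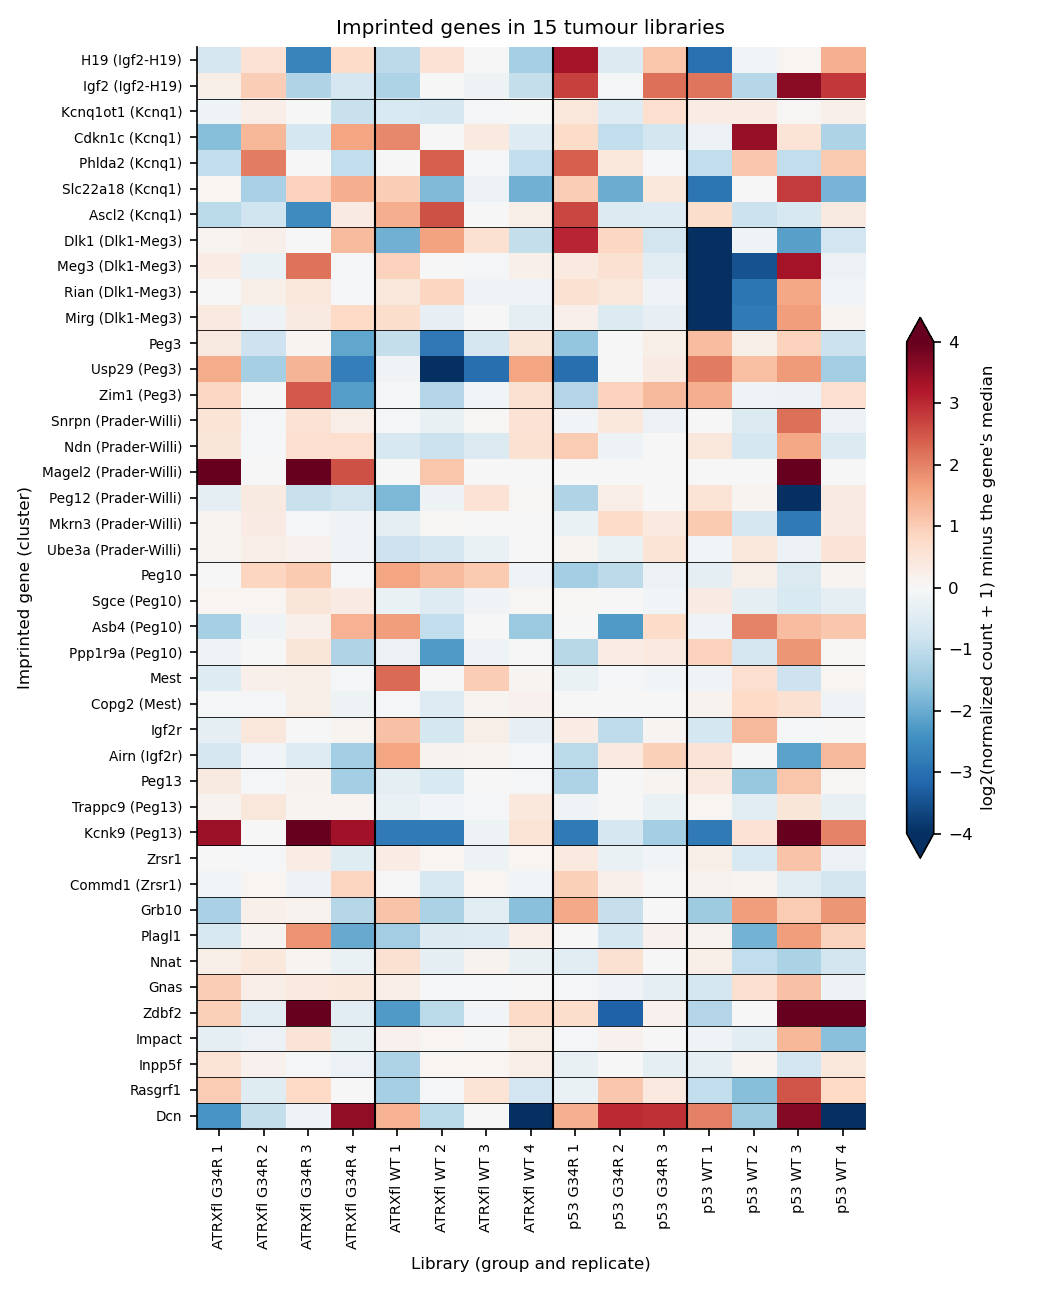
Levels of the 42 imprinted genes (rows, with their cluster in brackets) in the 15 libraries (columns, by group and replicate), as log2(normalized count + 1) minus the median of the gene, with the colour scale ending at -4 and 4. The deepest blue block is Meg3, Rian and Mirg in p53_WT replicates 1 and 2, and the deepest red cells include Kcnk9 and Zdbf2 in ATRXfl_G34R replicate 3 and p53_WT replicate 3.

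No imprinted gene passed limma at an adjusted p under 0.05 in any of the 8 comparisons. The comparisons were H3.3G34R against H3.3WT with Atrx floxed and with Atrx intact, Atrx floxed against intact with each histone, both changes against neither, the interaction, and the averages of the Atrx and of the histone effects. These share libraries with each other and are not independent. For H3.3G34R against H3.3WT with Atrx floxed, limma called 0.0% of all 17521 genes, and 8 of 39 tested members had an unadjusted p under 0.05, where 2.79% of all genes did. Of these 8, Kcnk9, Magel2, Ndn, Sgce, Ube3a and Gnas were on the higher side (6, where 1.61% of all genes were) and Ascl2 and Airn on the lower (2, where 1.18% were). Kcnk9 and Magel2 passed the filter on low values through ATRXfl_G34R alone, so their side was set by the filter. Their means were 293 and 86.2 in ATRXfl_G34R against 3.67 and 0.292 in ATRXfl_WT. The median log2 change of the 39 was 0.28, with 28 above 0, against a median of -0.00077 and 49.9% above 0 over all genes. In the same comparison 12 of 12 mature neuron markers (median 1.96, 5 with an unadjusted p under 0.05), 8 of 8 mature oligodendrocyte markers (0.97) and 5 of 5 erythroid markers (1.25) were on the higher side, and 1 of 8 endothelial markers (-0.50) was. So were 4 of 4 tested choroid plexus (1.05), 7 of 8 astrocyte (0.23) and 6 of 8 microglia and macrophage markers (0.19). Of fibroblast and mural markers 4 of 14 (-0.23) were, and of oligodendrocyte progenitor markers 1 of 7 (-0.033). Their part in the members' values was not tested. The count of 8 was 2 without ATRXfl_G34R replicate 3 and 2 without ATRXfl_WT replicate 1, and 3, 3, 4 and 5 without ATRXfl_G34R replicate 1, ATRXfl_WT replicate 2, ATRXfl_G34R replicate 4 and ATRXfl_WT replicate 3.

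The other comparisons held 1 to 4 members at an unadjusted p under 0.05 with every library in the fit. With Atrx intact, 1 of 40 did for H3.3G34R against H3.3WT (Dlk1, higher), where 1.47% of all genes did, 0.761% on the higher side. For Atrx floxed against intact with H3.3G34R, 3 of 40 did (Gnas, Kcnk9 and Peg10, all higher), where 3.39% of all genes did, 2.12% on the higher side. With H3.3WT, 2 of 39 did, Peg10 higher and Igf2 lower, where 3.76% of all genes did (2.07% higher, 1.69% lower). For both changes against neither, 2 of 41 did, Dlk1 and Nnat, both higher, where 4.37% of all genes did, 2.72% on the higher side. For the interaction, 4 of 40 did, Kcnk9, Magel2 and Zdbf2 with positive and Ascl2 with negative values, where 2.05% of all genes did (1.17% positive, 0.883% negative). Kcnk9, Magel2 and Zdbf2 passed the filter on low values there through ATRXfl_G34R, p53_WT or both, the groups with positive weight. Their means in ATRXfl_WT and p53_G34R were at most 8.10, so their side in the interaction was set by the filter. The average Atrx effect had 2 of 40, Peg10 higher and Igf2 lower, against 4.87% of all genes (2.89% higher, 1.99% lower), and the average histone effect 2 of 40, Dlk1 and Sgce, both higher, against 2.15% (1.04% higher). Limma called 0.0% of all genes for H3.3G34R with Atrx intact, 0.0229% and 0.0335% for Atrx with H3.3G34R and with H3.3WT, 0.0227% for both changes, 0.0% for the interaction, and 0.0956% and 0.0% for the averages of Atrx and histone. With 1 library left out, the member counts ran from 0 (without p53_G34R replicate 1 or 2) to 4 (without p53_WT replicate 3) for H3.3G34R with Atrx intact, and from 3 to 5 (without ATRXfl_G34R replicate 2 or p53_G34R replicate 2) for Atrx with H3.3G34R. They ran from 1 (without ATRXfl_WT replicate 2 or 3) to 6 (without p53_WT replicate 2 or 3) for Atrx with H3.3WT, from 1 (without ATRXfl_G34R replicate 1, 2 or 3) to 6 (without p53_WT replicate 3) for both changes, and from 1 (without ATRXfl_G34R replicate 1 or 3 or ATRXfl_WT replicate 1 or 2) to 6 (without p53_WT replicate 1) for the interaction. For the averages they ran from 2 to 5 (without p53_G34R replicate 2 or p53_WT replicate 3) for Atrx, and from 0 (without ATRXfl_G34R replicate 4 or ATRXfl_WT replicate 1) to 6 (without p53_WT replicate 3) for the histone. The order of the comparisons by this count thus changed with single libraries. Median log2 changes of the tested members in these 7 comparisons ran from -0.19 for Atrx floxed against intact with H3.3WT to 0.35 for the interaction, and the medians of all genes lay between -0.014 and 0.00034. The paternally and maternally expressed members had medians of 0.28 and 0.26 for H3.3G34R with Atrx floxed, and of -0.024 and -0.14 for the average Atrx effect.

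By edgeR, 0 members passed in any of the 8 comparisons, where it called 0.0% of all genes in 5 of them, 0.0112% for Atrx floxed against intact with H3.3WT, 0.0113% for both changes and 0.0788% for the average Atrx effect. DESeq2 on the recovered reads called 1 member for Atrx floxed against intact with H3.3G34R (Kcnk9, where 0.48% of all genes were called), 1 with H3.3WT (Zdbf2, 0.373%) and 2 for the average Atrx effect (Igf2 and Peg10, 0.465%). It called 0 members for H3.3G34R with Atrx floxed (0.154% of all genes) and intact (0.0479%), for both changes (0.324%), for the interaction (0.0555%) and for the average histone effect (0.0555%). The authors' deposited table held Kcnk9 past the threshold for Atrx with H3.3G34R (0.538% of genes with an adjusted p) and Zdbf2 for Atrx with H3.3WT (0.352%). The authors' deposited tables of the other pairwise comparisons held 0 members past it, for H3.3G34R with Atrx floxed (0.182%) and intact (0.0578%) and for both changes (0.38%).

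**Figure D2:**
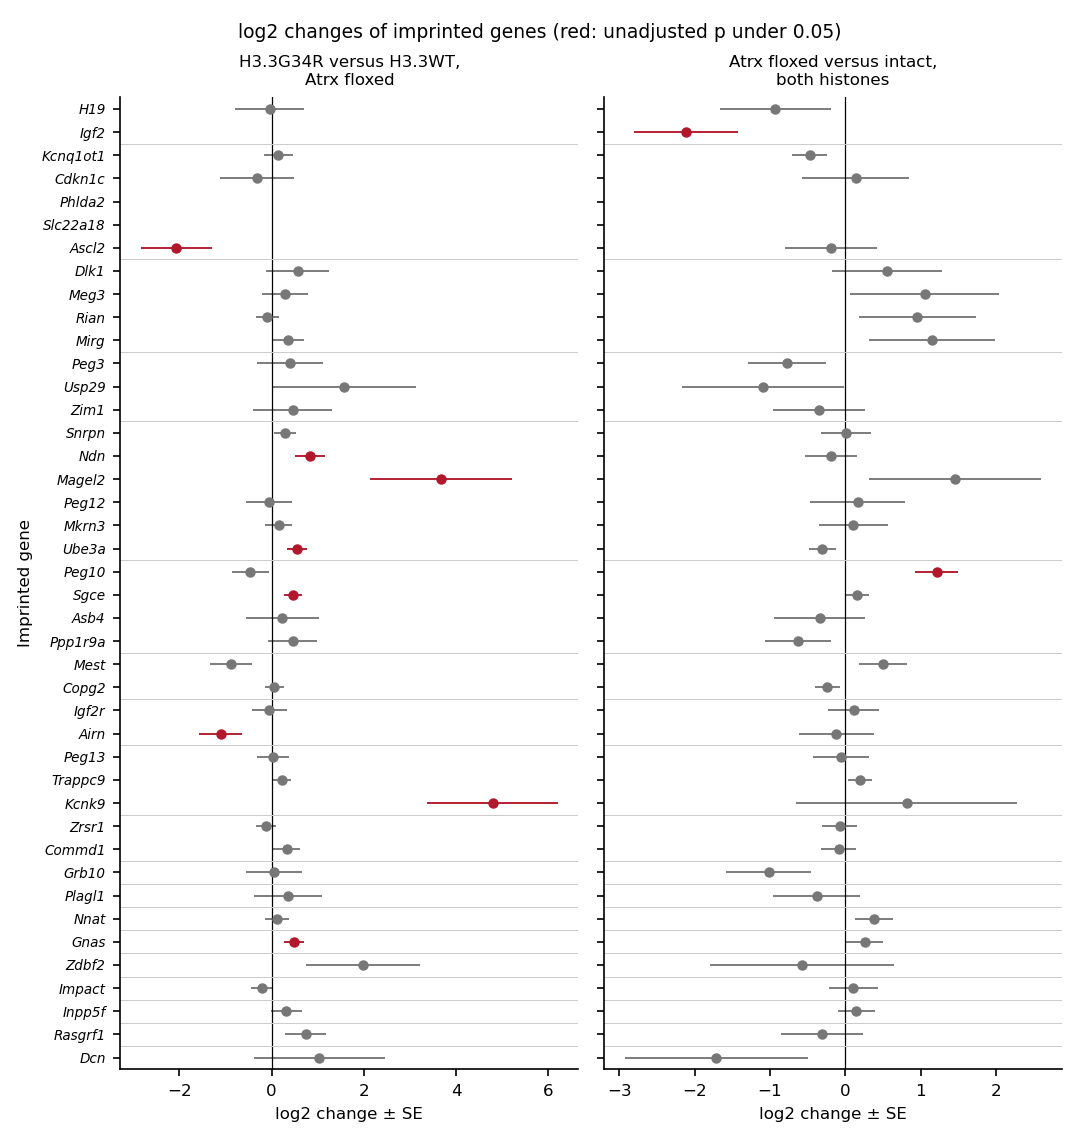
log2 changes of the tested imprinted genes with their standard errors (bars) for H3.3G34R against H3.3WT with Atrx floxed (left) and for Atrx floxed against intact averaged over both histones (right), with red points where the unadjusted limma p was under 0.05. On the left 8 of 39 points are red, and on the right Peg10 (1.21) and Igf2 (-2.12) are.

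In the Dlk1-Meg3 cluster of chromosome 12, the maternally expressed RNAs were far lower in 2 libraries of H3.3WT tumours with intact Atrx than in any other library. Dlk1 encodes a transmembrane protein of the Delta family, Meg3 (also Gtl2) is a long non-coding RNA that gives the cluster its maternal transcript, and Rian and Mirg are downstream RNAs that host small nucleolar RNAs and microRNAs. Meg3 (ENSMUSG00000021268; mm10 chromosome 12, 109541001 to 109571726, plus strand) was at 156 in p53_WT replicate 1, 698 in replicate 2, 79269 in replicate 3 and 6632 in replicate 4. It was at 9668, 6497, 35290.5 and 7474 in ATRXfl_G34R, at 14665, 7823, 7365 and 8973 in ATRXfl_WT, and at 10260.4, 11876 and 5793 in p53_G34R. The 2 low values thus lay below every one of the other 13 libraries, which ran from 5793 upward, and the 2 highest belonged to the libraries richest in mature neuron markers.

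Rian and Mirg had the same 2 low libraries. Rian (chromosome 12, 109603940 to 109661716) was at 65.1, 466, 9957 and 3169.6 in p53_WT and at 3110.3 to 6192 in the other 3 groups. Mirg (109729764 to 109749460) was at 3.25, 35.1, 816 and 276 in p53_WT and at 176 to 446 in the other groups. Rtl1, a paternally expressed gene of the same cluster taken from a second list of imprinted genes, was at 0, 27.6, 329 and 35.3 in p53_WT, with 0 reads in replicate 1. It was at 25.7 to 173 in the other 3 groups, so its level in p53_WT replicate 2 lay within their range. In p53_WT replicate 1 the neuron marker sum was 5637 and the progenitor marker sum 455579, the highest of the 15 libraries, and in replicate 2 they were 1936, the lowest, and 213063.

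**Figure D3:**
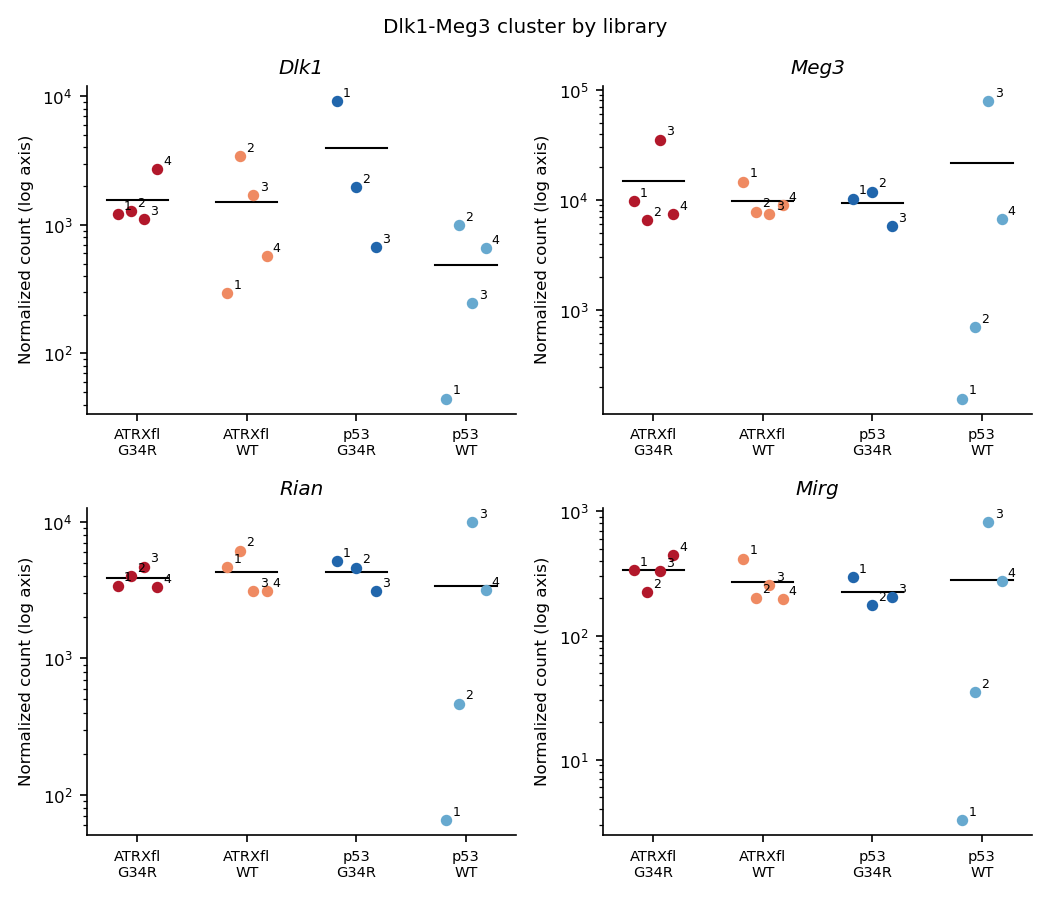
Normalized counts (log axis) of the 4 listed genes of the Dlk1-Meg3 cluster in each library by group, with points numbered by replicate and a line at the group mean. Meg3, Rian and Mirg were lowest in p53_WT replicate 1 and next lowest in replicate 2, while Dlk1 was lowest in replicate 1 only, with replicate 2 at 992.

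Dlk1 itself (ENSMUSG00000040856; chromosome 12, 109452823 to 109463336) followed another pattern. It was at 44.5, 992, 248 and 655 in p53_WT, at 9214, 1970.5 and 674 in p53_G34R, at 293, 3410.2, 1699 and 569 in ATRXfl_WT and at 1205, 1279.5, 1114 and 2696 in ATRXfl_G34R. Every ATRXfl_G34R library was above every p53_WT library, one of the comparisons in which 2.94% of all genes had groups that did not overlap, 1.57% on the higher side, and in which Dlk1 was the 1 member of 41. Its log2 change there was 2.33 (SE 0.86, limma unadjusted p = 0.0245, adjusted p = 0.999), and 1.44 without p53_WT replicate 1. With Atrx intact the log2 change for H3.3G34R was 2.98 (SE 1.2, unadjusted p = 0.0383, adjusted p = 1.0), with groups that overlapped. The average Atrx effect on Meg3 was 1.05 (SE 0.99, unadjusted p = 0.304), and DESeq2 gave -0.25, with no adjusted p.

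The promoter of Meg3 and microRNAs of the cluster are shown because these transcripts were low together in p53_WT replicates 1 and 2. The window below runs from 250 bases before to 50 bases after the RefSeq start of Meg3 (GRCm38.p6, chr12:109540746-109541045, plus strand) and holds 13 CpG sites. Capitals mark the reverse complement of TGCCGC, the hexamer that the imprint-keeping protein ZFP57 binds when its CpG is methylated.
Meg3 promoter: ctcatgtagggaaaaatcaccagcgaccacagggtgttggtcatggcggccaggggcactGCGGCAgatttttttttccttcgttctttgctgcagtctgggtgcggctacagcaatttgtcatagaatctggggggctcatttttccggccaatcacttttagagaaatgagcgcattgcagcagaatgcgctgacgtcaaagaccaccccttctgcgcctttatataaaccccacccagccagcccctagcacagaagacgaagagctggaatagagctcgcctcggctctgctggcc
On either strand, TGCCGC was in 12 of the 50 RefSeq promoter windows of members and in 11.6% of all 32851 windows. By gene, 11 of the 33 members with a window held it, against 13.1% of all genes. Median CpG counts were 14.5 a window for members and 7 for all genes. A match is only a description of these letters, and methylation was not measured.

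RefSeq places 57 microRNA hairpins between the start of Dlk1 and the end of Mirg, of which Meg3 holds 1, Rian 3 and Mirg 14. The libraries were made from messenger RNA, so mature microRNAs were not measured, and only their host transcripts are. Written 5′ to 3′ with the seed (bases 2 to 8) in capitals, examples from each host follow, with the H19 microRNA for comparison.
miR-770-5p in Meg3: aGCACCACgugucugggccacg
miR-370-3p in Rian: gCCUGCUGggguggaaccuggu
miR-382-5p in Mirg: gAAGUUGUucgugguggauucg
miR-134-5p in Mirg: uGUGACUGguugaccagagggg
miR-410-3p in Mirg: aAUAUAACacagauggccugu
miR-675-5p in H19: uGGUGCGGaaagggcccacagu
The 6 seeds differ from each other, and the seeds of the other microRNAs of these hosts were not compared.

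In the Peg3 cluster of chromosome 7, the paternally expressed Peg3 and Usp29 varied together from library to library with no separation of the groups. Peg3 encodes a large zinc finger protein and Usp29 a ubiquitin-specific protease, and the 2 genes are transcribed in opposite directions from neighbouring start sites. Peg3 (ENSMUSG00000002265; 6703892 to 6730431, minus strand) was at 6479, 2835, 5426 and 1182 in ATRXfl_G34R and at 2567, 693, 3128 and 7000.5 in ATRXfl_WT. It was at 1721, 5017 and 5896 in p53_G34R and at 11731, 5860.5, 9499.8 and 2794 in p53_WT. The lowest library was in ATRXfl_WT and the highest in p53_WT, and each group overlapped every other. Peg3 had its smallest unadjusted p for Atrx floxed against intact with H3.3WT (log2 -1.39, SE 0.69, limma unadjusted p = 0.0744, adjusted p = 0.976), and the log2 change was -0.52 by limma-voom with quality weights and -0.78 without ATRXfl_WT replicate 2.

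Usp29 (6730578 to 6967219, plus strand) stood at 294 ± 279 in ATRXfl_G34R and 200.1 ± 274 in ATRXfl_WT, and at 158 ± 119 in p53_G34R and 508 ± 328 in p53_WT. It ran from 2.34 in ATRXfl_WT replicate 2, which also had the lowest Peg3, to 845 in p53_WT replicate 1, which had the highest. Over the 15 libraries, log2 levels of Peg3 and Usp29 had Pearson r = 0.934 (permutation p = 2e-05, adjusted p = 0.0008) and Spearman rho = 0.918 (adjusted p = 0.0004). Without the 2 libraries farthest from the median of Peg3, r was 0.883 (adjusted p = 0.004), and over deviations from the group means it was 0.932. The sequence between the start sites is shown because this pair had the most stable relation among the clusters. The interval (GRCm38.p6, chr7:6730432-6730577, written on the strand of Peg3) is 146 bases long and holds 5 CpG sites, in capitals.
Peg3-Usp29 interval: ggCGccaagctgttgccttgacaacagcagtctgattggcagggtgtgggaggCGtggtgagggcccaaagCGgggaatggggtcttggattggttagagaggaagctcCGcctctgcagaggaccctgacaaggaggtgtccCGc
Zim1, the maternally expressed zinc finger gene of the cluster, had r = 0.717 with Peg3 (adjusted p = 0.0147) and 0.522 without the 2 farthest libraries (adjusted p = 0.236), so that call did not hold with fewer libraries. Over deviations from the group means it was 0.735 (adjusted p = 0.00743). Zim1 stood at 251 ± 276, 115 ± 52.5, 189.6 ± 124 and 182 ± 106 in the 4 groups in the same order, from 25.3 in ATRXfl_G34R replicate 4 to 649.7 in ATRXfl_G34R replicate 3. Of the Usp29 exons, 14.3% lie under exons of Zim3 on the other strand, and the strand setting of the counting is not given in the sources used here.

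**Figure D4:**
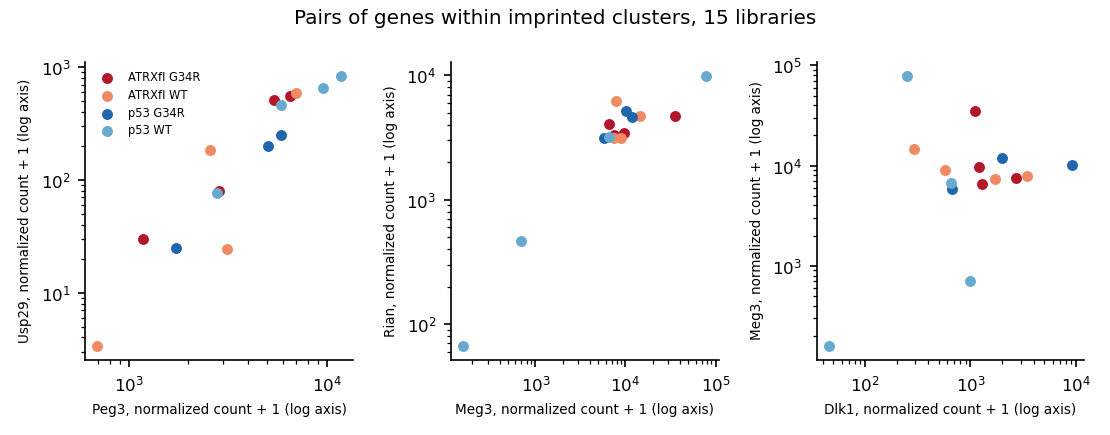
Levels of Peg3 and Usp29 (left), Meg3 and Rian (middle) and Dlk1 and Meg3 (right), as normalized count + 1 on log axes, with 1 point for each of the 15 libraries coloured by group. Peg3 and Usp29 spread along a line (r = 0.934), Meg3 and Rian have r = 0.939 with the lowest and highest points in p53_WT, and Dlk1 and Meg3 show none past the threshold (r = 0.358).

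Of 40 pairs of members within a cluster, 8 passed the adjusted threshold by Pearson correlation, all positive. Besides the 3 pairs of the Peg3 cluster, these were Meg3 with Rian (r = 0.939), Meg3 with Mirg (0.933), Rian with Mirg (0.959), Peg12 with Mkrn3 (0.881) and Snrpn with Ndn (0.735), each with an adjusted permutation p of at most 0.00653. Without the 2 libraries farthest from the median of the gene on the x axis, r was 0.768, 0.707, 0.521, 0.517 and 0.555 for these 5 pairs and none of them passed (adjusted p = 0.105 to 0.236). The calls thus did not hold without those libraries, which also left fewer libraries in the test. Over deviations from the group means r was 0.939, 0.921, 0.962, 0.897 and 0.774 for the same pairs, each with an adjusted p of at most 0.00313. By that measure 11 pairs passed, of which 2 were negative, Snrpn with Peg12 (r = -0.741, adjusted p = 0.0380) and Ndn with Peg12 (-0.637, 0.0411). Without the 2 farthest libraries Peg3 with Usp29 was the 1 pair of 40 that passed, and by Spearman it passed together with Meg3 with Rian. Pairs of genes expressed from opposite parental copies showed no negative relation past the threshold. H19 with Igf2 had r = 0.443 (adjusted p = 0.199), Igf2r with Airn 0.127 (0.759), Mest with Copg2 -0.030 (0.928) and Dlk1 with Meg3 0.358 (0.317).

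In the Peg10 cluster of chromosome 6, Peg10 had the smallest p of any member. It is a paternally expressed gene of retrotransposon origin that encodes Gag-like and Pol-like proteins. Peg10 (ENSMUSG00000092035; 4747306 to 4760517, plus strand) was at 2017, 3624, 4149.9 and 1954 in ATRXfl_G34R, at 5977, 4826, 4158 and 1814 in ATRXfl_WT, at 793, 977 and 1703 in p53_G34R and at 1531, 2367, 1362 and 2161 in p53_WT. Each ATRXfl_G34R library exceeded each p53_G34R library, and with H3.3WT the groups overlapped through ATRXfl_WT replicate 4. Over both histones the floxed libraries stood at 3565 ± 1519.6 and the intact ones at 1556 ± 578.

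The log2 difference of Peg10 for Atrx floxed against intact was 1.34 (SE 0.37, limma unadjusted p = 0.00623) with H3.3G34R and 1.08 (SE 0.38, limma unadjusted p = 0.0190) with H3.3WT. Averaged over both histones it was 1.21 (SE 0.28, limma unadjusted p = 0.000683). After adjustment over all genes none passed (adjusted p = 0.9999, 0.976 and 0.246). With each library left out in turn the average effect ran from 1.10 to 1.39 (adjusted p = 0.0535 to 0.616), positive in every one of these fits, and DESeq2 called it (1.26, adjusted p = 0.0105). The interaction on Peg10 was 0.25 (SE 0.56, unadjusted p = 0.661), so its Atrx difference was not shown to depend on the histone. In the average Atrx comparison 5 of 5 erythroid markers (median log2 change 2.27) and 8 of 8 endothelial markers (0.53) were on the higher side, none with an unadjusted p under 0.05, against 2 of 12 mature neuron markers (-0.35) and 9 of 14 fibroblast and mural markers (0.15). With H3.3G34R, 4 of 5 erythroid markers had an unadjusted p under 0.05 (median 3.58), and with H3.3WT none did (median 0.85). The part of these cells in the Peg10 result was not tested.

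**Figure D5:**
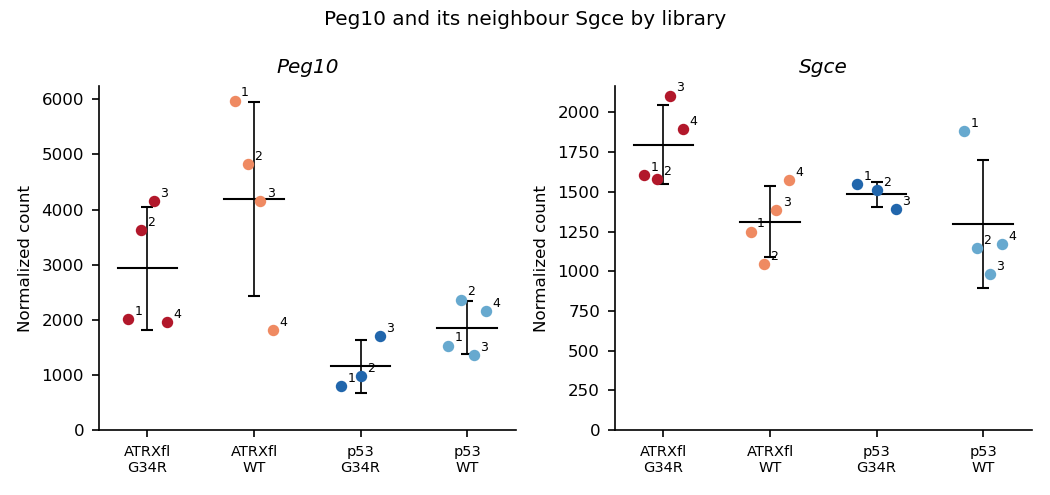
Normalized counts of Peg10 (left) and Sgce (right) in each library by group, with points numbered by replicate, a line at the group mean and bars of 1 SD. Peg10 lay at 1814 to 5977 in the 8 Atrx-floxed libraries and at 793 to 2367 in the 7 intact ones, and the ranges of Sgce over these 8 and 7 libraries overlapped.

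Sgce, the paternally expressed sarcoglycan epsilon gene that starts beside Peg10 on the other strand (4674350 to 4747207), had floxed and intact libraries that overlapped. It was at 1607, 1580.3, 2106 and 1895 in ATRXfl_G34R, 1249, 1044, 1383 and 1572 in ATRXfl_WT, 1548, 1509 and 1392 in p53_G34R and 1885, 1145, 984 and 1172 in p53_WT. Its average Atrx effect was 0.16 (SE 0.16, unadjusted p = 0.328), and the levels of Peg10 and Sgce had r = -0.121 (adjusted p = 0.759). Sgce was higher in each ATRXfl_G34R than in each ATRXfl_WT library (log2 0.46, SE 0.19, unadjusted p = 0.0383, adjusted p = 0.9997), where 2.16% of all genes had groups that did not overlap and 3 of 39 members did. Sgce and Gnas were on the higher side (0.959% of all genes) and Airn on the lower (1.2%). These counts use the scaling of the deposited table of the comparison, on which the lowest ATRXfl_G34R and the highest ATRXfl_WT library stood at 988.6 for Gnas after rounding. With the scaling over all 15 libraries the groups of Gnas overlapped. The maternally expressed neighbours were Ppp1r9a, which encodes the actin-binding protein neurabin, and Asb4. Ppp1r9a was at 3163, 3527, 4910.2 and 1511 in ATRXfl_G34R, 2975, 726, 3137 and 3505 in ATRXfl_WT, 1639.9, 4321 and 4579 in p53_G34R and 6586, 2177, 11886 and 3594 in p53_WT, highest in the neuron-rich p53_WT replicate 3. Asb4, a subunit of a ubiquitin ligase, stood at 42.5 ± 32.97, 42.1 ± 44.6, 31.7 ± 24.96 and 78.3 ± 43.0 in the 4 groups in that order, from 6.05 to 134.

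In the Igf2-H19 domain of chromosome 7, H19 was expressed in every library, and Igf2 was near the lower limit of the counting. Igf2 encodes an insulin-like growth factor expressed from the paternal copy and H19 a maternally expressed non-coding RNA, and a shared control region bound by CTCF sets which of them is active. H19 (ENSMUSG00000000031; 142575529 to 142578143) was at 208, 503, 53.3 and 558 in ATRXfl_G34R, 160.3, 501, 335 and 132 in ATRXfl_WT, 3414, 229 and 724 in p53_G34R and 41.2, 310.4, 355 and 906 in p53_WT. The value in p53_G34R replicate 1, which also had the highest Dlk1 (9214) and Ascl2 (143), lay above all others, of which the highest was 906. For H19 the average Atrx effect was -0.93 (SE 0.74, unadjusted p = 0.228).

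Igf2 (ENSMUSG00000048583; 142650766 to 142666816) was at 9.72, 17.3, 2.96 and 4.82 in ATRXfl_G34R, 2.93, 8.18, 6.97 and 3.79 in ATRXfl_WT, 60.3, 7.79 and 40.8 in p53_G34R and 39.0, 3.19, 112 and 64.3 in p53_WT. All 8 floxed libraries were at or under 17.3, while 5 of the 7 intact ones were at 39.0 or above. Igf2 passed the filter on low values through the intact libraries, and with Atrx floxed alone it was not tested. The average log2 difference was -2.12 (SE 0.69, limma unadjusted p = 0.00803, adjusted p = 0.774), from -2.62 to -1.83 with each library left out (adjusted p = 0.154 to 0.9996), and DESeq2 called it (-2.69, adjusted p = 0.00803). The values are few reads, 3 to 131 a library, and 62.8% of the annotated Igf2 exons also belong to the readthrough model Gm49394 on the same strand. How reads in shared exons were counted is not given in the sources used here.

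In the neighbouring Kcnq1 domain, Kcnq1ot1, a paternally expressed antisense RNA that silences its neighbours, was detected in every library. It was at 457, 617, 512 and 274 in ATRXfl_G34R, 337, 321, 487 and 511 in ATRXfl_WT, 706, 357 and 807 in p53_G34R and 630.1, 635, 529 and 586 in p53_WT. All 4 ATRXfl_WT libraries were below all 4 p53_WT libraries, the 1 of 39 members with groups that did not overlap there, where 2.65% of all genes had such groups, 1.26% on the lower side. The average Atrx effect was -0.47 and ranged from -0.65 to -0.36 with each library left out (adjusted p = 0.607 to 0.9997). Ascl2, a transcription factor of the placenta, was at 9.72, 12.2, 2.96 and 27.7 in ATRXfl_G34R, 61.6, 133, 21.8 and 25.6 in ATRXfl_WT, 143, 14.7 and 15.1 in p53_G34R and 35.8, 11.7, 13.7 and 28.02 in p53_WT. With Atrx floxed its log2 change for H3.3G34R was -2.07 (SE 0.77, unadjusted p = 0.0229, adjusted p = 0.9997). The growth inhibitor gene Cdkn1c stood at 137 ± 115 in ATRXfl_G34R and 146 ± 123 in ATRXfl_WT, and at 78.4 ± 55.5 in p53_G34R and 298 ± 443 in p53_WT, with 959.9 in p53_WT replicate 2, and 30.7% of its exon length lies under a predicted gene on the other strand. Slc22a18, an organic cation transporter gene, had group means of 5.26 to 14.5, and Phlda2, a restrainer of placental growth, of 1.58 to 3.99, which left Phlda2 untested.

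In the Prader-Willi cluster of chromosome 7, the members split within single libraries. Snrpn, which encodes a splicing protein of neurons, was at 2439, 1611, 2487 and 1992 in ATRXfl_G34R, 1572, 1345, 1727 and 2464 in ATRXfl_WT, 1549.5, 2209 and 1417 in p53_G34R and 1662, 1145, 7629 and 1402 in p53_WT. Ndn, which encodes necdin, a protein of postmitotic neurons, was at 2459, 1706, 2781 and 2838, at 1118, 980.2, 1172 and 2671, at 3554, 1522 and 1762, and at 2411, 1083, 5193 and 1211 in the same order of groups. Both were highest in p53_WT replicate 3, the library rich in neuron markers. In that same library Peg12 (28.2) and Mkrn3 (23.1) were at their lowest, against 145 to 747 and 108 to 359 in the other 14. The group means of Peg12, an intronless gene related to a regulator of Wnt signalling, lay between 398 and 482, and those of Mkrn3, a ubiquitin ligase gene that restrains puberty, between 162 and 217. Magel2, a ubiquitin ligase regulator of the hypothalamus, was at 308 in ATRXfl_G34R replicate 3, 38.5 in p53_WT replicate 3 and 32.1 in ATRXfl_G34R replicate 1, at most 4.82 in the other 12 and at 0 in each p53_G34R library.

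With Atrx floxed, Ndn had a log2 change of 0.82 for H3.3G34R (SE 0.33, unadjusted p = 0.0311, adjusted p = 0.9997) and 0.66 to 1.15 with each library left out. Ube3a, the maternally expressed ubiquitin ligase of the cluster, stood at 1987 ± 221 in ATRXfl_G34R and 1397 ± 366 in ATRXfl_WT (log2 0.54, SE 0.22, unadjusted p = 0.0325, adjusted p = 0.9997), and at 2064 ± 584 in p53_G34R and 2106 ± 544 in p53_WT. In this comparison 12 of 12 mature neuron markers had a positive log2 change with a median of 1.96, and their part in the result was not tested. Exons of Snhg14 and other genes on the opposite strand cover 27.3% of Ube3a, and 27.3% of Snrpn is shared with overlapping models on its own strand.

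In the Peg13-Kcnk9 cluster of chromosome 15, Kcnk9 was detected strongly in a few libraries. Kcnk9 encodes the potassium channel TASK3 of neurons and is expressed from the maternal copy in brain, and Peg13 is a paternally expressed non-coding RNA within Trappc9. Kcnk9 (ENSMUSG00000036760; 72501089 to 72546340) was at 74.8, 6.10, 1019 and 71.1 in ATRXfl_G34R, 0, 0, 5.23 and 9.46 in ATRXfl_WT, 0, 3.46 and 1.77 in p53_G34R and 0, 9.57, 3296 and 27.0 in p53_WT. The libraries with the highest values were the 2 richest in mature neuron and oligodendrocyte markers. Each ATRXfl_G34R library exceeded each p53_G34R library, as for Peg10, Sgce, Trappc9 and Gnas (5 of 40 members, all higher, where 4.64% of all genes had groups that did not overlap, 2.34% on the higher side).

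Kcnk9 passed the filter on low values there through ATRXfl_G34R alone, since the p53_G34R libraries held 0 to 4 reads, so the size of its fold depends on the pseudocount. The log2 change of Kcnk9 for Atrx floxed against intact with H3.3G34R was 5.10 (SE 1.48, limma unadjusted p = 0.00822, adjusted p = 0.9999). DESeq2 gave 7.36 (adjusted p = 0.0114), and 7.36 stands in the authors' deposited table (adjusted p = 0.0104). With Atrx floxed the log2 change for H3.3G34R was 4.79 (SE 1.41, unadjusted p = 0.00717, adjusted p = 0.9997), and 3.57 without ATRXfl_G34R replicate 3. In that comparison too Kcnk9 passed the filter through ATRXfl_G34R alone, with a mean of 3.67 in ATRXfl_WT. With H3.3WT the difference for Atrx lay on the other side (-3.47, SE 2.18, unadjusted p = 0.145), with 3296 in p53_WT replicate 3. The interaction was 8.57 (SE 2.94, unadjusted p = 0.0111, adjusted p = 0.9996). Kcnk9 passed the filter through p53_WT alone with H3.3WT, and through ATRXfl_G34R and p53_WT for the interaction. These sides too were thus set by the filter. Peg13 was at 5335, 3966, 4517 and 1619 in ATRXfl_G34R, 3212, 2719, 4122 and 4031 in ATRXfl_WT, 1745, 4189 and 4465 in p53_G34R and 5415, 1439, 8836 and 4261 in p53_WT, with no such split. Trappc9, a subunit of a vesicle tethering complex, stood at 2495 ± 295, 2187 ± 495, 1963 ± 181 and 2152 ± 636 in the same order of groups.

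Zdbf2, a paternally expressed gene of chromosome 1 known for its role in hypothalamic circuits that drive feeding, showed a like pattern. It was at 17.5, 6.10, 333 and 6.03 in ATRXfl_G34R, 0.978, 3.50, 7.84 and 15.1 in ATRXfl_WT, 14.6, 0 and 9.76 in p53_G34R and 3.25, 8.50, 492 and 502 in p53_WT. The values in ATRXfl_G34R replicate 3 and p53_WT replicates 3 and 4 were thus at 333 or above, and the other 12 at or below 17.5. Of these libraries p53_WT replicate 4 had a neuron marker sum of 8351, within the range of libraries with low Zdbf2. DESeq2 called Zdbf2 lower with Atrx floxed and H3.3WT (log2 -5.19, adjusted p = 0.0189), as is also so (-5.19, adjusted p = 0.0189) in the authors' deposited table. Limma gave -3.24 (SE 1.63, unadjusted p = 0.0781, adjusted p = 0.976) with groups that overlapped. Zdbf2 passed the filter on low values there through p53_WT alone, with means of 252 in p53_WT and 6.87 in ATRXfl_WT. Its side in that comparison was thus set by the filter.

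Of the clusters with an antisense RNA or an overlapping pair, Mest and Airn had their highest level in ATRXfl_WT replicate 1, and Igf2r had it in p53_WT replicate 2. Igf2r, the receptor that clears IGF2, is silenced on the paternal copy by the antisense RNA Airn in most mouse tissues but not in neurons. Airn was at 65.1, 95.5, 72.1 and 39.8 in ATRXfl_G34R, 311, 116, 113 and 99.4 in ATRXfl_WT, 48.8, 136 and 202 in p53_G34R and 149, 104, 23.1 and 258 in p53_WT. All 4 ATRXfl_G34R libraries were below all 4 ATRXfl_WT libraries (log2 -1.11, SE 0.47, unadjusted p = 0.0403, adjusted p = 0.9997), and the change was -0.73 without ATRXfl_WT replicate 1. Igf2r was at 1628, 2883, 2118 and 2263 in ATRXfl_G34R, 4790.3, 1309.7, 2481 and 1687 in ATRXfl_WT, 2598, 1047 and 2265 in p53_G34R and 1313, 5156, 1993 and 2117 in p53_WT.

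Mest, a paternally expressed gene of mesoderm that encodes a hydrolase, was at 787, 1319, 1332 and 1074 in ATRXfl_G34R, 5497, 1136, 2243 and 1223 in ATRXfl_WT, 935, 1068 and 1064 in p53_G34R and 1041, 1818, 636 and 1196 in p53_WT. ATRXfl_WT replicate 1, which had the highest Mest (5497) and Airn (311), is the library with the highest fibroblast, mural and endothelial marker sums, and their part in these values was not tested. Copg2, a coat protein gene whose exons meet those of Mest on the other strand over 17.8% of its length, was at 1708, 1682, 2063 and 1519 in ATRXfl_G34R, 1698, 1224, 1902 and 1972 in ATRXfl_WT, 1765, 1803 and 1766 in p53_G34R and 1967, 3083, 2689 and 1618 in p53_WT. Zrsr1, a splicing factor gene of retroposon origin inside Commd1, was at 847, 797, 1036 and 604, at 1041, 895, 740.5 and 889.7, at 1104, 705 and 789.7, and at 995, 560.2, 1878 and 717 in the 4 groups in that order. Its host Commd1, a regulator of copper handling and NF-kappa-B, was at 535, 611, 508 and 1059.8, at 582, 369, 619 and 541, at 1134, 669.5 and 572, and at 645, 634, 432 and 349.8. Neither had an unadjusted p under 0.05 in any comparison.

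Of the members that stand alone, Nnat had the highest mean per length, 4968 normalized counts a kilobase of exon, against 1008 for Snrpn and 783 for Meg3. Nnat encodes neuronatin, a small membrane protein of developing neurons. It was at 10963, 12431, 10021 and 7804 in ATRXfl_G34R, 14328, 7103, 10201 and 7668 in ATRXfl_WT, 6876, 14301 and 9328 in p53_G34R and 10959.7, 4744, 3895 and 5659 in p53_WT. For both changes against neither its log2 change was 0.81 (SE 0.34, unadjusted p = 0.0400, adjusted p = 0.999), with groups that overlapped through p53_WT replicate 1. It was lowest in p53_WT replicate 3, although that library held the most neuron marker reads.

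Gnas, which encodes the stimulatory G protein subunit, was at 1648, 1008, 1084 and 1116 in ATRXfl_G34R, 1012, 803, 793 and 833 in ATRXfl_WT, 794, 754 and 647 in p53_G34R and 515, 1288, 1897 and 729.6 in p53_WT. Its ATRXfl_G34R libraries were above all p53_G34R libraries (log2 0.70, SE 0.23, unadjusted p = 0.0133, adjusted p = 0.9999) but not above those of p53_WT. With Atrx floxed its log2 change for H3.3G34R was 0.48 (SE 0.21, unadjusted p = 0.0472, adjusted p = 0.9997), and ATRXfl_G34R replicate 2 (1008) lay beside the highest ATRXfl_WT library (1012). Counts pool the imprinted and the biallelic transcripts of Gnas, and 21.96% of its exon length lies under Nespas and a predicted gene on the other strand.

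The remaining 6 single members had no unadjusted p under 0.05. Grb10, an adaptor that restrains insulin signalling, stood at 608 ± 315 in ATRXfl_G34R and 709 ± 676 in ATRXfl_WT, and at 1132 ± 949 in p53_G34R and 1737 ± 1069 in p53_WT. Plagl1, a zinc finger gene that regulates other imprinted genes, stood at 237 ± 252, 129.6 ± 60.0, 159 ± 46.5 and 283 ± 219 in the same order, with the top values in ATRXfl_G34R replicate 3 (604) and p53_WT replicate 3 (562). Impact, a translation regulator, had group means of 1870.2 to 2159 and ranged from 608 to 4871. Inpp5f, a phosphoinositide phosphatase gene with 1 imprinted transcript, had group means of 5089 to 6523 and ranged from 2531 to 8603. Rasgrf1, a Ras exchange factor of neurons, had group means of 1354 to 3296 and ranged from 484 to 9111. Impact and Rasgrf1 were highest in p53_WT replicate 3. Dcn, the matrix proteoglycan decorin, stood at 595 ± 1002, 187 ± 204, 1085 ± 525 and 776 ± 1071 in the 4 groups, from 7.57 in ATRXfl_WT replicate 4 to 2308 in p53_WT replicate 3. Dcn is imprinted in placenta and is also a fibroblast product, and in the library with the highest fibroblast and mural marker sum it was at 474.

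A second list of 39 imprinted genes outside the members, written from general knowledge, had 30 to 33 tested genes a comparison. Limma called 0 of them in all 8 comparisons, with 0 to 3 at an unadjusted p under 0.05 in each, where 1.47% to 4.87% of all genes were. The 3 with the smallest p were Cobl, Ddc and Bmp1. Cobl, an actin nucleator gene, stood at 921 ± 489.9 in ATRXfl_WT and 3209 ± 1292 in p53_WT (log2 -1.83, SE 0.45, unadjusted p = 0.00253, adjusted p = 0.976). Ddc, an enzyme of dopamine synthesis and neighbour of Grb10, stood at 10.03 ± 3.66 in p53_G34R and 89.6 ± 66.3 in p53_WT (log2 -2.79, SE 0.69, unadjusted p = 0.00375, adjusted p = 1.0). Bmp1, a procollagen protease gene, stood at 6298 ± 1805, 11064 ± 3811, 9216 ± 3265 and 5606 ± 1943 in the 4 groups, and its interaction was -1.53 (SE 0.53, unadjusted p = 0.0117).

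Of 32 genes that keep or read imprints, 29 or 30 were tested in each comparison, and limma called 0, with 0 to 2 at an unadjusted p under 0.05 against the same shares of all genes. Smchd1, a chromatin protein that silences imprinted clusters and the inactive X chromosome, stood at 2388 ± 312 in ATRXfl_G34R and 1502 ± 350.0 in ATRXfl_WT, with groups that did not overlap (log2 0.69, SE 0.21, unadjusted p = 0.00783, adjusted p = 0.9997). It was the 1 of 29 tested genes of this list with such groups there (3.45%), where 2.16% of all genes had them. Zfp57, the zinc finger protein of methylated control regions, stood at 799 ± 103 in ATRXfl_G34R and 1192 ± 268 in p53_G34R, with groups that did not overlap (log2 -0.57, SE 0.22, unadjusted p = 0.0295, adjusted p = 0.9999). In that comparison 2 of 30 tested genes of this list had such groups (6.67%), where 4.64% of all genes did. Dnmt3l, a cofactor that sets imprints in germ cells, was at most 60.3 in any library (interaction -3.25, SE 1.21, unadjusted p = 0.0175). Daxx, which encodes the partner of ATRX, ran from 1121 to 1892, and the average Atrx effect on it was 0.038 (SE 0.15).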

How the data were processed

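RNA-seq was measured in 15 tumour libraries in 4 groups. RNA was taken with Qiagen RNeasy and libraries made with TruSeq mRNA kits, per the labels' protocols. Reads were aligned with STAR 2.7 to mm10, counted with HTSeq and compared with DESeq2, per the submitters' processing notes. For strand settings and annotation, nothing is stated in the sources used here. The authors' 5 deposited tables give normalized counts (unit signal: read counts divided by size factors), log2 fold changes, Wald scores, p-values and adjusted p-values. Whole reads came back from 100.0% of values within 0.01 in the 35 library columns used for this, and 3 columns were not used. Library depth was 22807315 to 35679129 reads in genes. Symbols and mm10 positions came from GENCODE M21, which matched 99.9% of IDs.

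Tests covered genes whose mean reached 10, with limma 3.58.1 (trend, robust) in R 4.3.3 on log2(value + 1), adjusted by Benjamini-Hochberg over all genes. Pairs of groups used their own table. The interaction and the averages used reads of all 15 libraries scaled by the median of ratios. edgeR 4.0.16, DESeq2 1.42.0, limma-voom, TMM scaling, other pseudocounts, no filter, Xist as covariate and each library left out were alternatives. Xist was at 6.80, 6.10, 14623 and 27.7 in ATRXfl_G34R and at 22.5, 10675, 9.58 and 31168 in ATRXfl_WT. It was at 21879, 6.92 and 42096 in p53_G34R and at 36221, 1.06, 16835 and 30455 in p53_WT. Libraries with high and with low Xist were thus in every group, in unequal shares. Correlations used log2 levels, 100000 permutations and 40 pairs. Tests were tried on simulated data. Members and lists were chosen with earlier results of these data known. Values in every library are given for members called in any comparison, the member of each cluster with the smallest unadjusted p and the one with the highest mean, and single genes with an unadjusted p under 0.05. Other members named with such values were added after their values were seen. From the 2 other lists the 3 genes with the smallest p, Daxx and Zfp57 are named, Rtl1 was added after its values were seen for its place beside Meg3, and 1 further gene is not reported here.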

Additional observations from a re-analysis of the deposited data

Results flagged for a closer look

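In 10 of the 69 tested groups of 4 libraries (14.5%), 1 library lay far from the other 3 by Dixon's ratio (above 0.829). That limit is passed in about 1 in 20 groups only for independent values with a normal spread. The ratio was taken on counts without a log, and the genes share libraries, so the 14.5% cannot be set against chance. Of the 10, 3 were in p53_WT replicate 3, the library with the highest mature neuron marker sum. Meg3 was at 79269 there against 156 to 6632 in the other p53_WT libraries, Snrpn at 7629 against 1145 to 1662, and Kcnk9 at 3296 against 0 to 27.0. Another 3 were in ATRXfl_G34R replicate 3, the library with the second highest such sum. Meg3 was at 35290.5 there against 6497 to 9668, Kcnk9 at 1019 against 6.10 to 74.8, and Zdbf2 at 333 against 6.03 to 17.5. Airn stood at 311 in ATRXfl_WT replicate 1 against 99.4 to 116, the library with the highest fibroblast, mural and endothelial marker sums. The other 3 were Ndn at 2671 in ATRXfl_WT replicate 4 against 980.2 to 1172, Dlk1 at 2696 in ATRXfl_G34R replicate 4 against 1114 to 1279.5, and Gnas at 1648 in ATRXfl_G34R replicate 1 against 1008 to 1116. The group of 3 was not tested in this way, nor was part of the members, Magel2 among them.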

How the results depend on the processing

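With DESeq2 the genes called were 33 and 11 for H3.3G34R against H3.3WT with Atrx floxed and intact, 111 and 77 for Atrx floxed against intact with H3.3G34R and H3.3WT, 75 for both changes against neither, 12 for the interaction, and 107 and 12 for the averages of Atrx and histone, against 0, 0, 4, 6, 4, 0, 17 and 0 by limma. The members among them were 1 (Kcnk9), 1 (Zdbf2) and 2 (Igf2 and Peg10). For Atrx with H3.3G34R, 12 genes were called with no filter, 0 by edgeR and 0 with Xist as covariate. For Atrx with H3.3WT edgeR and the Xist covariate each gave 2 genes, as they did for both changes against neither, where a pseudocount of 0.5 also gave 2. limma-voom called 38 for the average Atrx effect. Leaving out 1 library gave 0 to 5 genes for Atrx with H3.3G34R (5 without p53_G34R replicate 1, 0 without any other), 2 to 8 with H3.3WT (8 without p53_WT replicate 3, 3 without p53_WT replicate 1, 2 without any other), 2 to 8 for both changes against neither (8 without p53_WT replicate 3) and 10 to 25 for the average Atrx effect (10 and 11 without p53_G34R replicates 3 and 2, 25 without p53_WT replicate 3), and 0 members in each. The Atrx difference ran from -1.58 to -1.40. Of 40 pairs, 2 passed by Spearman, chosen after seeing the data, 1 without the 2 farthest libraries and 11 over deviations from group means, 9 of them positive. Of 399 settings of single members 12 moved and 2 became stronger. The sign turned in 7 of them, for 4 members with no adjusted p under 0.05: Zrsr1, Peg13, Igf2r and Meg3, the last for both changes (2.05, against -0.49 by edgeR and -0.54 by DESeq2). The cause was not tested. No paired analysis was possible because no number in the titles is shared between groups. Igf2, Magel2, Phlda2 and Slc22a18 rest on few reads, and Kcnk9 and Zdbf2 on few reads outside a few libraries, which limits their comparisons.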
